A study of Homo sapiens with 12 samples.

Results

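The effect of adding 17β-estradiol (E2) to anastrozole was measured in T47D cells, an established estrogen receptor-positive line from a human breast carcinoma, as the difference between 3 RNA-seq libraries labelled anastrozole plus E2 and 3 labelled anastrozole. These 6 of the 12 libraries of the series were chosen by their labels, and the libraries given vehicle or E2 alone were not used. All cells had spent 48 hours in medium with charcoal-stripped serum, which is poor in steroids, and then 24 hours in medium without serum. Anastrozole was given at 10 nM in both groups, and E2 at 0.1 nM in the combination group only. The sample labels put the treatment at 12 hours and the methods of the study at 24 hours, and the counts do not settle which is right. The replicates carry the letters a, b and c, and neither these nor the labels say whether they came from separate cultures. The study's statistics describe its gene expression data as coming from 3 separate experiments, without naming the sequencing, so the p-values are taken to measure the spread between these libraries alone, which may be technical. One cell line grown without stroma also sets the limit of the model, because the estrogen synthesis that anastrozole is given to block takes place in patients largely in other tissues. Reads that fell on genes came to 13930525, 9914253 and 11317347 for replicates a, b and c of anastrozole, and to 16158706, 14352011 and 13944949 for those of the combination. Levels are in CPM, a library's counts put on the scale of its depth. A gene was taken as detected from 3 counts, which is 0.186 CPM in the deepest library and 0.304 CPM in the shallowest, a limit that covers counting error only.

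Estradiol binds the estrogen receptor α, the product of ESR1, a nuclear receptor that then binds DNA directly or through other factors and recruits coactivators such as NCOA3 or corepressors such as NCOR1. In luminal breast cancer cells it is known for inducing genes of growth and secretion, among them GREB1, MYC, PGR and CTSD, and for lowering others. Anastrozole blocks aromatase, the enzyme encoded by CYP19A1 that makes estrogens from androgens.

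Adding E2 to anastrozole raised known estrogen-induced genes (EGR3, RARA, OLFM1, GREB1 and MYC), the glycolytic regulator PFKFB3, the transcription factor RUNX1 and the zinc-handling genes MT2A and SLC30A1. It lowered the zinc importer SLC39A10, the surface proteins VTCN1 and CD24, the transcriptional regulator CITED2 and the interleukin-1 receptor IL1R1. Of the 25370 genes in the table, 20410 had at least 1 count in these libraries and were tested, and 621 (3.04%) passed an adjusted p of 0.05 in edgeR's quasi-likelihood test. The genes higher with the combination numbered 370 (1.81%) and those lower 251 (1.23%). Abundant genes were called more often, 340 higher and 247 lower of the 11069 with an average of 3 log2 CPM or more (5.3%). Changes were mostly small. The median size of the called log2 fold changes was 0.23, and only 29 of the 621 genes differed by at least 1.5-fold and 6 by at least 2-fold. The CPM values of the groups did not overlap in 565 of the 621 called genes and in 3597 of all 20410 tested. A lack of overlap, given below for single genes, is therefore shared by most called genes. Other tests called fewer genes, edgeR's exact test 310 (182 higher, 128 lower). DESeq2's Wald test called 236 of the 4582 genes left by its own filter, 96 higher and 140 lower. In bulk RNA, fewer cells of a type and less RNA per cell cannot be told apart.

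The libraries differed in how their counts followed the GC content of exons, most of all anastrozole library a, where Spearman's rho across 10880 genes between a gene's deviation from the mean of all libraries and its GC content was -0.65. It was -0.42 in anastrozole library b and 0.24 in c, while the combination libraries had 0.43, 0.33 and 0.35. Between the log2 fold change and GC content rho was 0.57. It carries no p-value, since the counts of different genes are not independent. The part of this trend in the 621 calls was not tested directly, but each library's trend was also removed as an offset, which left 432 genes (2.12%), 228 higher (1.12%) and 204 lower (1%), and 282 genes were called with the same direction with and without it. The calls also moved with single libraries, from 242 genes without combination library c to 1728 without anastrozole library c. A core of 122 genes, 67 higher and 55 lower, was called with the same direction in each of the 6 fits that left out 1 library and with the GC offset. This core was defined after the values were seen, and its genes were not required to pass another test or filter. Genes described below belong to it unless a limit is given.

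**Figure D1:**
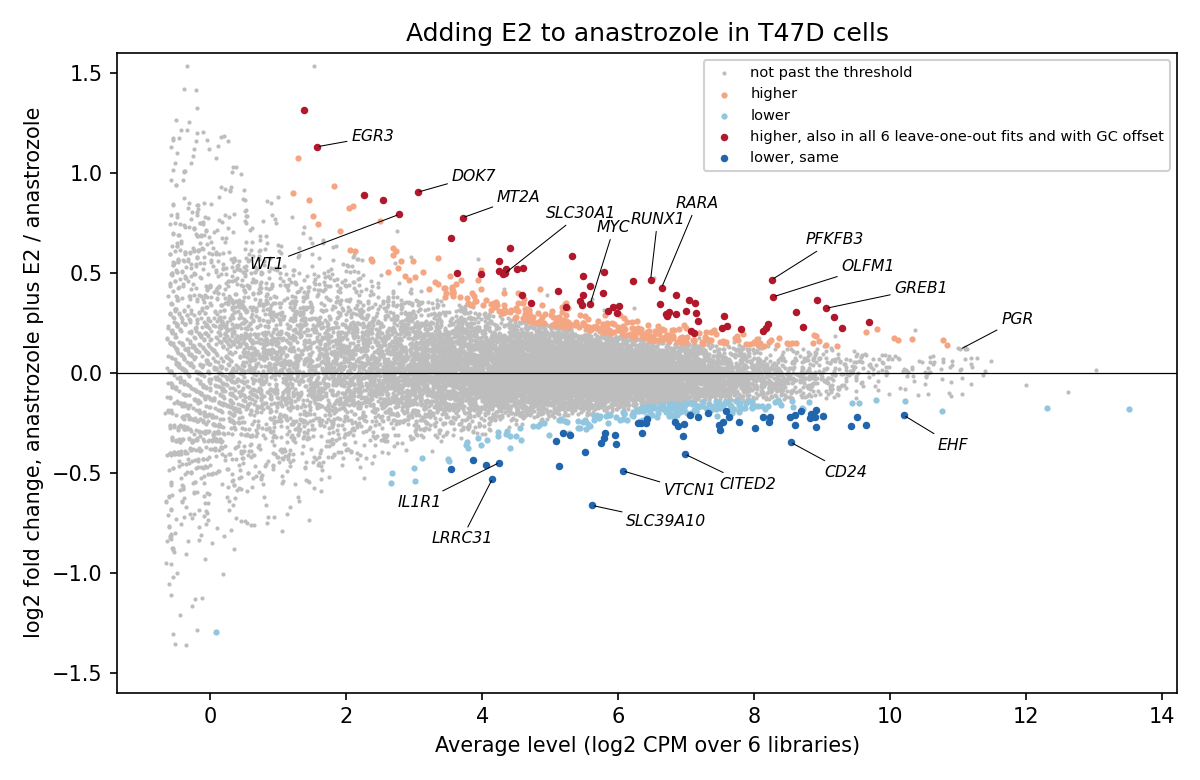
Log2 fold change of anastrozole plus E2 over anastrozole (y axis) against the average level in log2 CPM (x axis) for the 15173 genes with a mean of at least 0.5 CPM. Pale red and blue points passed the threshold, dark points are the 122 core genes, and most called genes lie within 0.5 of 0, with EGR3, DOK7 and MT2A above and SLC39A10 furthest below among the labelled genes.

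The estrogen-induced genes leaned upward. Of 40 such targets tested, 18 were higher with the combination and 0 lower, against 1.81% and 1.23% of all genes. This is 45% called, against 3.04% of all genes and 5.3% of the abundant genes. The members of this and the other lists were chosen with earlier results of these data known, so these counts describe the lists and do not test them. In this list 34 of the 40 log2 fold changes were above 0. The median log2 fold change was 0.21, against 0.01 over all genes tested. With the GC offset 18 were higher and 0 lower, with a median of 0.19, but not the same 18. ADCY9, SIAH2 and CELSR2 dropped out, and PGR, NRIP1 (log2 fold change 0.19) and TPD52L1 (0.21) came in. EGR3, an immediate early zinc finger factor, had 1.52, 1.72 and 2.01 CPM in anastrozole libraries a, b and c and 3.91, 3.68 and 3.87 CPM in the combination libraries. Every combination library lay well above every anastrozole library, although the level was low. Its log2 fold change was 1.13 (SE 0.23, adjusted p = 0.000237), the largest of the list. GREB1, a chromatin-bound cofactor of the estrogen receptor (ENSG00000196208, chr2:11622467-11782914 of GRCh37), had 471, 467 and 484 CPM with anastrozole and 597, 596 and 586 CPM with the combination. The groups were far apart relative to their spread, and the log2 fold change was 0.32 (SE 0.04, adjusted p = 1.57e-11). MYC, the growth-promoting transcription factor, rose from 42.1, 42.8 and 41.9 CPM to 53.1, 54.9 and 53.1 CPM, a log2 fold change of 0.35 (SE 0.07, adjusted p = 7.67e-05). Its replicates lay within 2 CPM of each other in each group and the groups did not overlap.

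RARA, the retinoic acid receptor α (ENSG00000131759, chr17:38465432-38513895 of GRCh37), had 80.3, 87.8 and 86.9 CPM with anastrozole and 115, 114 and 114 CPM with the combination. The combination libraries were nearly identical and all above the anastrozole libraries, with a log2 fold change of 0.43 (SE 0.05, adjusted p = 3.88e-14). Of its exon bases, 11.7% are also exons of RARA-AS1 on the other strand, and whether reads were assigned by strand is not known. OLFM1, a secreted glycoprotein (ENSG00000130558, chr9:137967268-138013026), had 274, 271 and 266 CPM with anastrozole and 357, 341 and 357 CPM with the combination, a log2 fold change of 0.38 (SE 0.04, adjusted p = 2.38e-15). No library of either group came near the other group. IGFBP4, which binds insulin-like growth factors, rose from a mean of 520 ± 16.3 to 631 ± 14.2 CPM (SD, n = 3), and SLC9A3R1, the scaffold protein of microvilli also called NHERF1, from 349 ± 35.9 to 431 ± 9.29 CPM. Their log2 fold changes were 0.28 and 0.30, or 0.17 and 0.21 with the GC offset. The lysosomal protease CTSD (0.25), the transcription factor MYBL1 (0.26), the secreted hormone STC2 (0.23), the co-chaperone FKBP4 (0.23), the amino acid transporter SLC7A5 (0.22) and the chemokine CXCL12 (0.21) also rose on the log2 scale. With the offset the values were 0.14 for CTSD, 0.12 for SLC7A5 and 0.31 for MYBL1. The receptor tyrosine kinase RET (log2 fold change 0.35, adjusted p = 0.0184) and the scaffold PDZK1 (0.23, adjusted p = 0.0465) passed the threshold but lost it in at least 1 fit without a library, as did ADCY9, SIAH2 and CELSR2.

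Not every estrogen target passed. PGR, the progesterone receptor, had 1960, 2030 and 2040 CPM with anastrozole and 2040, 2250 and 2250 CPM with the combination. The groups were apart by a narrow margin, combination library a being barely above the highest anastrozole library, and the log2 fold change of 0.12 (SE 0.04, adjusted p = 0.0969) missed the threshold, but it was 0.17 with the GC offset (adjusted p = 9.51e-06). TFF1, a secreted trefoil peptide, had 0.868, 1.32 and 0.963 CPM against 1.92, 1.81 and 1.36 CPM. At this low level its log2 fold change of 0.72 did not pass (adjusted p = 0.247). Of the others, CCND1 (log2 fold change 0.06), XBP1 (0.00) and IGF1R (-0.01) had adjusted p-values of 0.583 or more.

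**Figure D2:**
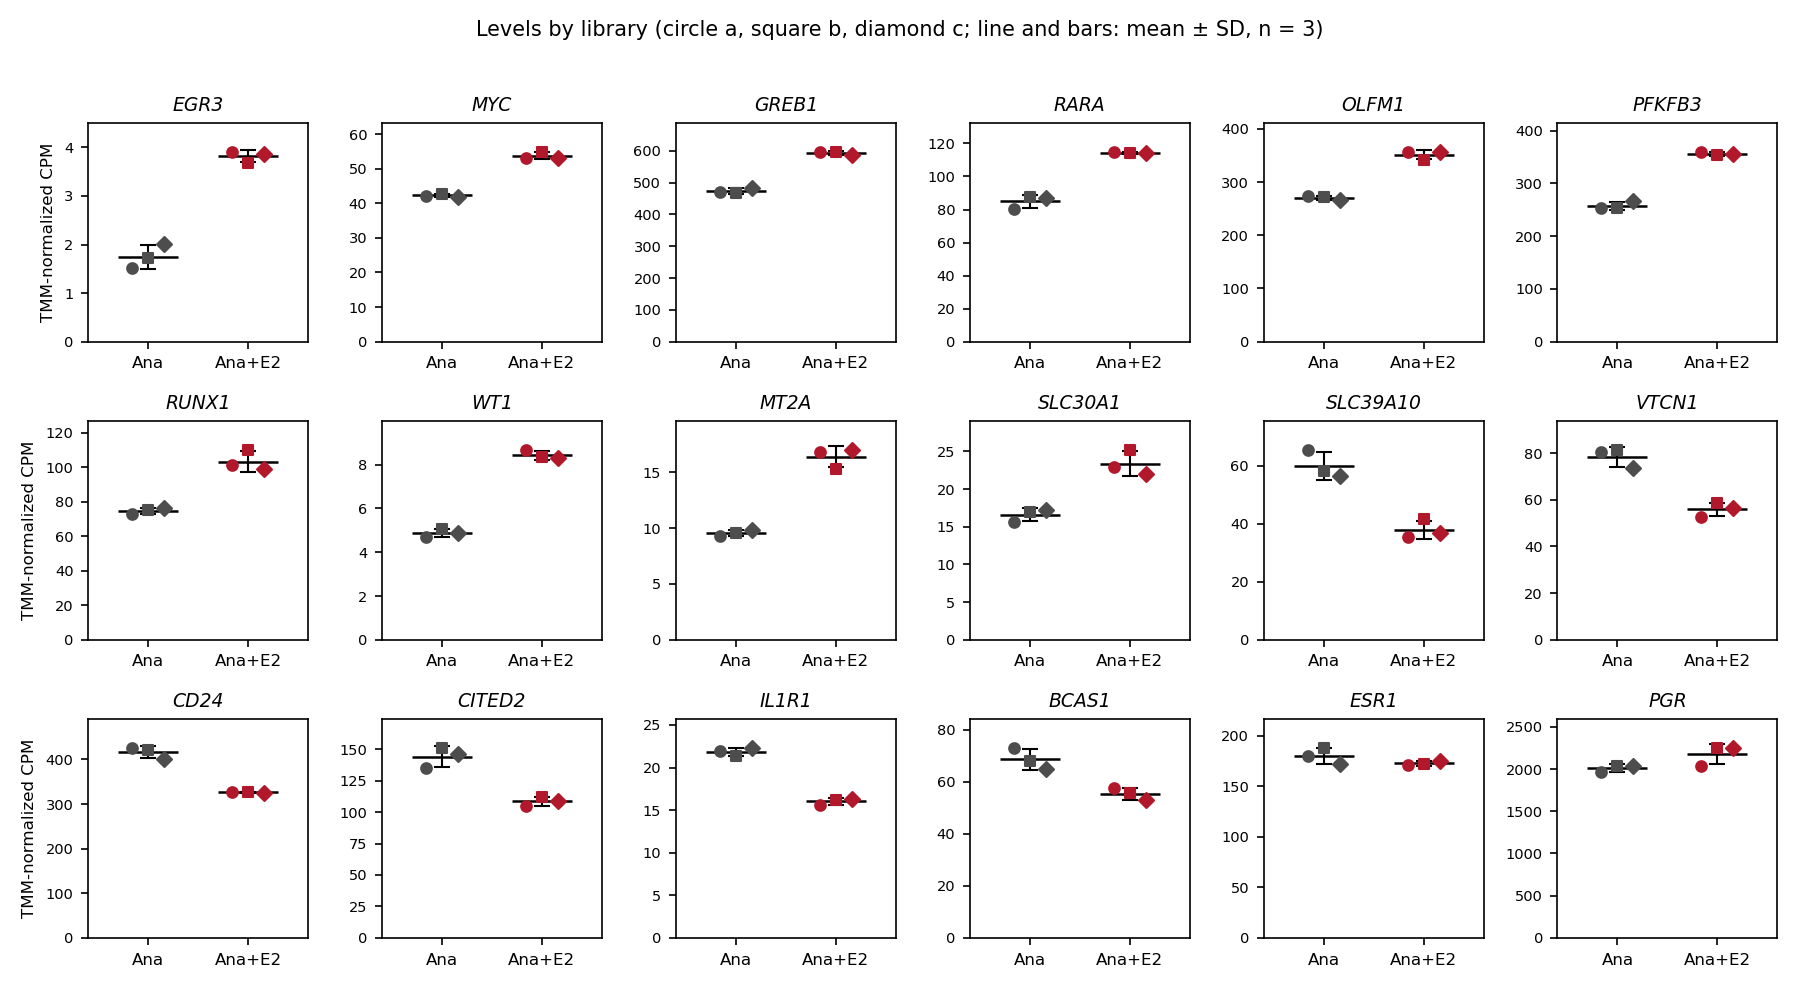
TMM-normalized CPM (y axis, from 0) of 18 genes in the anastrozole (Ana) and anastrozole plus E2 (Ana+E2) libraries, with a circle, square and diamond for replicates a, b and c and lines and bars for the mean and SD (n = 3). The groups are clearly apart for every gene drawn other than ESR1, whose groups overlap, and PGR, whose groups nearly touch.

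Among genes known to be lowered by estrogen, those that passed were lower. Of 16 tested, 0 were higher and 4 lower with the combination (IL1R1, BCAS1, BLNK and CCNG2), against 1.23% of all genes lower. This is 25% called, against 3.04% of all genes and 5.3% of the abundant genes, and the median log2 fold change was -0.15. With the GC offset 6 were lower, BMF, EPAS1 and ERBB2 coming in and BLNK dropping out. IL1R1, the receptor of interleukin-1 (ENSG00000115594, chr2:102681004-102796334 of GRCh37), had 21.9, 21.3 and 22.3 CPM with anastrozole and 15.6, 16.2 and 16.3 CPM with the combination. Both groups were tight and did not overlap, with a log2 fold change of -0.45 (SE 0.09, adjusted p = 0.000209). BCAS1, amplified in breast cancers, fell from 73, 67.8 and 65 CPM to 57.5, 55.5 and 53.1 CPM, a log2 fold change of -0.31 (SE 0.06, adjusted p = 6.97e-05). BLNK, a signalling adaptor, fell by 0.25 on the log2 scale (adjusted p = 0.0375), a call lost with the offset and in 5 of the 6 fits without a library, and CCNG2, an atypical cyclin, fell by 0.18 (adjusted p = 0.00342) and kept its call in 4 of those fits. ERBB2 had a log2 fold change of -0.07 (adjusted p = 0.44), and -0.14 with the offset (adjusted p = 0.0026).

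The receptor itself did not pass the threshold. ESR1 (ENSG00000091831, chr6:151977826-152450754 of GRCh37) had 180, 188 and 172 CPM with anastrozole and 171, 172 and 175 CPM with the combination. The groups overlapped, and the log2 fold change was -0.06 (SE 0.04, adjusted p = 0.589). Among 18 genes of the receptor, its pioneer factors and coregulators, 1 was higher and 1 lower (11.1%), against 3.04% of all genes and 5.3% of the abundant genes called, with a median log2 fold change of 0.00. FOXA1 and GATA3, the pioneer factors that define luminal cells, had log2 fold changes of -0.04 and -0.01 (adjusted p of 0.704 and 0.934). The higher one, RBBP8, which binds BRCA1, rose by 0.23 on the log2 scale (adjusted p = 0.000653), in 4 of the 6 fits without a library. Of 18 genes of estrogen synthesis and breakdown, 0 passed in edgeR's test, and 1 did with the GC offset, the 17β-hydroxysteroid dehydrogenase gene HSD17B12 (log2 fold change 0.15, adjusted p = 0.0109). CYP19A1 had 0 counts in all 3 anastrozole libraries and 2, 0 and 2 counts in combination libraries a, b and c, at or under the limit of detection in every library, so no fold is given.

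**Figure D3:**
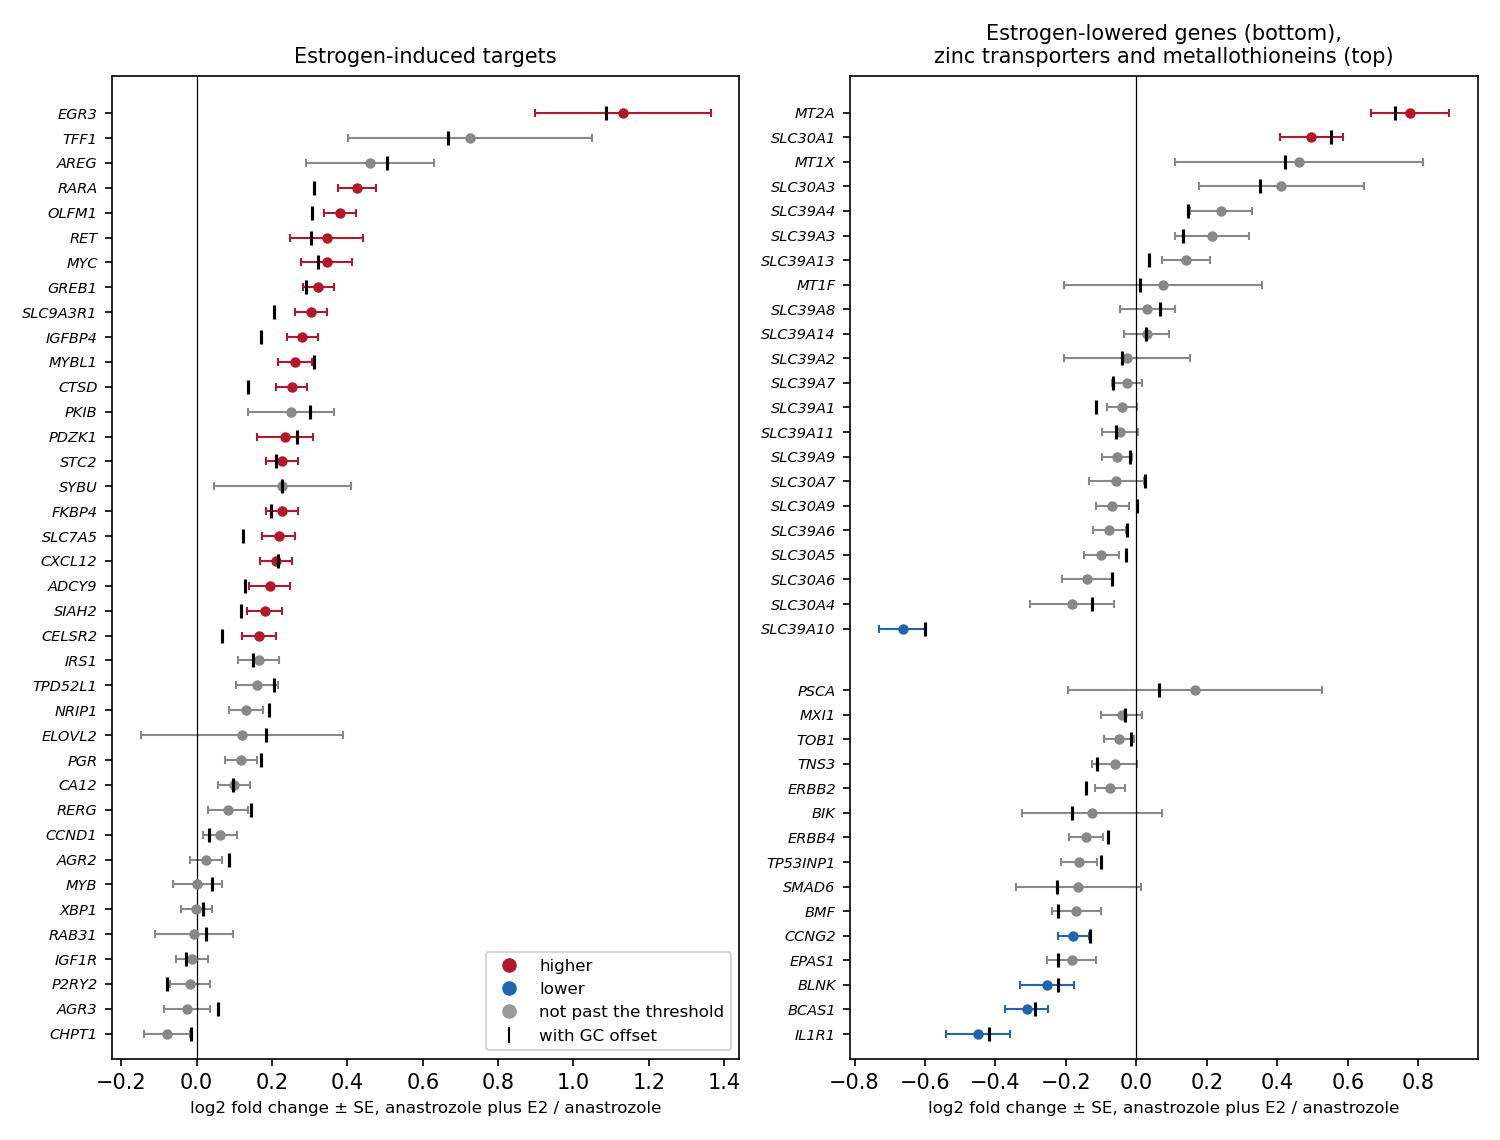
Log2 fold change of anastrozole plus E2 over anastrozole (x axis, circles with SE bars) for members with a mean of at least 1 CPM, 38 estrogen-induced genes on the left and 22 zinc genes and 15 estrogen-lowered genes on the right. Red and blue circles passed the threshold, black ticks mark the value with the GC offset, and the red circles on the left run from CELSR2 at 0.17 to EGR3 at 1.13.

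Of the 27 genes of cellular zinc tested, 2 rose and 1 fell (11.1%), against 3.04% of all genes and 5.3% of the abundant genes called. MT2A encodes a metallothionein, which binds zinc, SLC30A1 the exporter that carries zinc out through the plasma membrane, and SLC39A10 an importer. MT2A (ENSG00000125148) had 9.33, 9.53 and 9.81 CPM with anastrozole and 16.8, 15.3 and 17 CPM with the combination. The groups were far apart, and its log2 fold change was 0.78 (SE 0.11, adjusted p = 3.13e-09). SLC30A1 (ENSG00000170385) rose from 15.6, 17 and 17.2 CPM to 22.9, 25.2 and 22 CPM, with no overlap and a log2 fold change of 0.50 (SE 0.09, adjusted p = 1.18e-05). SLC39A10 (ENSG00000196950) fell from 65.5, 58.2 and 56.3 CPM to 35.6, 41.5 and 36.8 CPM, and its lowest anastrozole library was still above its highest combination library. Its log2 fold change of -0.66 (SE 0.07, adjusted p = 6.31e-19) was the largest fall of the core. The offset left these 3 values at 0.73, 0.55 and -0.60. Among 27 zinc transporter and metallothionein genes tested, these were the 3 that passed, and the list median was -0.04. With the offset the importer SLC39A1 was lower as well (log2 fold change -0.11). The importers SLC39A6 (log2 fold change -0.08, adjusted p = 0.473) and SLC39A9 (-0.05, adjusted p = 0.625) did not pass, nor did the importers SLC39A4 (0.24) and SLC39A3 (0.21) and the exporter SLC30A3 (0.41), whose values were above 0. MT1X, at 0.868, 1.42 and 0.613 against 1.49, 1.18 and 1.22 CPM, was low and did not pass (adjusted p = 0.62).

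The promoters of the 3 zinc genes are shown because metallothionein and SLC30A1 promoters are known to hold metal response elements, bound by the zinc sensor MTF1. The core of this element was searched on both strands as TGCACNC and TGCGCNC, letters chosen after it was known which zinc genes had moved. The windows are RefSeq promoters of GRCh38.p14, from 250 bases before to 50 after each gene's start, and 23 of the 29 listed genes had an entry by symbol. TGCACNC is found in 12.1% of all 35116 windows, TGCGCNC in 20% and either in 29.6%. The capitals mark the matches, 5′ to 3′ on the strand of the gene. MT2A (chr16:56608334-56608633, plus strand) holds 6 matches of TGCACNC and 2 of TGCGCNC.
MT2A: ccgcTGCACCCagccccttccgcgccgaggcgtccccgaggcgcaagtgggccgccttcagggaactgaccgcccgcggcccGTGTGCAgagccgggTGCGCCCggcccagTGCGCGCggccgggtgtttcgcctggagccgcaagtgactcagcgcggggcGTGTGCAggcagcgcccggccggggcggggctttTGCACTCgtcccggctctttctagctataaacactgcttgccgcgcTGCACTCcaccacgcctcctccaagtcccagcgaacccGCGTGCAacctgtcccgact
SLC30A1 (chr1:211579112-211579411, minus strand) holds 2 matches of TGCACNC.
SLC30A1: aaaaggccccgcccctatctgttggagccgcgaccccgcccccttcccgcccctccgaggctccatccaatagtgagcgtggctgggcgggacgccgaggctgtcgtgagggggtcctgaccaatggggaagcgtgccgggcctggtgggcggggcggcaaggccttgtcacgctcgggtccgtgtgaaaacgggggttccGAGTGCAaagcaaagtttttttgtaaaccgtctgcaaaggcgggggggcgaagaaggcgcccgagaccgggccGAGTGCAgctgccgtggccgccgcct
SLC39A10 has 2 overlapping windows, of which chr2:195656976-195657275 (plus strand, printed here) holds 1 match of TGCACNC and chr2:195656708-195657007 holds 0.
SLC39A10: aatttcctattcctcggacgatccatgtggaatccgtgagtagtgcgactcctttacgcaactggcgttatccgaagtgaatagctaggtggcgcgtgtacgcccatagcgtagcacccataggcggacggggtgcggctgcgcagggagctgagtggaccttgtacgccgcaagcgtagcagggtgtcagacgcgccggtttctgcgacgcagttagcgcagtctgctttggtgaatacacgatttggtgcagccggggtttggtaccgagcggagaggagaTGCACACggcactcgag
Of the 23 listed genes with a window, 8 held TGCACNC and 14 held either form, genes that did not pass included, against 15.7% and 42.6% of the 13353 tested genes with a window. These matches describe letters in a window and not a bound site. The full estrogen response element, GGTCA, any 3 bases and TGACC, was found in 20 of the 35116 windows (0.057%). None of the 26 estrogen-induced genes with a window held it, nor did any of the 273 higher and 197 lower genes with a window, which says only that these letters are not within these 300 bases.

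PFKFB3, which makes the activator of the glycolytic enzyme phosphofructokinase, had the smallest adjusted p of all genes (1.64e-23). It had 254, 253 and 266 CPM with anastrozole and 360, 353 and 355 CPM with the combination (ENSG00000170525, chr10:6186897-6296607 of GRCh37). Every combination library was well above every anastrozole library, with a log2 fold change of 0.47 (SE 0.04). Of 40 hypoxia-regulated and glycolytic genes, 5 were higher and 0 lower (12.5%), against 3.04% of all genes and 5.3% of the abundant genes called, with a median log2 fold change of 0.06. The other 4 were the prolyl hydroxylase subunit P4HA2 (0.21) and the glycolytic enzymes PFKP (0.17), PFKL and ALDOA (0.14), none of which passed in every fit without a library. With the offset 5 were again higher, PDK1 (0.18) and ERO1L (0.13) taking the place of PFKL (0.02) and ALDOA (0.07), and DDIT4 was lower. ALDOA shares 42.8% of its exon bases with another gene on its strand. VEGFA, a hypoxia target, had a log2 fold change of -0.02 (adjusted p = 0.866) and ENO1 of 0.08 (adjusted p = 0.396).

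RUNX1, CITED2, CD24, VTCN1 and B4GALT1 had adjusted p-values among the smallest. RUNX1, a transcription factor of luminal cells (ENSG00000159216), had 72.8, 75.1 and 76.2 CPM with anastrozole and 101, 110 and 98.6 CPM with the combination. The groups did not overlap, and the log2 fold change was 0.47 (SE 0.05, adjusted p = 2.38e-15). CITED2, which binds the coactivators CBP and p300, fell from 135, 151 and 146 CPM to 105, 112 and 109 CPM, a log2 fold change of -0.41 (SE 0.05, adjusted p = 1.91e-14) with all combination libraries lower. CD24, a heavily glycosylated surface protein of luminal cells, had 426, 422 and 401 CPM with anastrozole and 328, 327 and 325 CPM with the combination. Its combination libraries were all but equal, and the log2 fold change was -0.35 (SE 0.04, adjusted p = 3.89e-13). It had no match in the annotation, so the GC offset left its counts as they were and overlapping genes were not looked up. VTCN1, the immune checkpoint ligand B7-H4, fell from 80.4, 81.4 and 73.5 CPM to 52.8, 58.5 and 56.3 CPM, a log2 fold change of -0.49 (SE 0.06, adjusted p = 2.41e-13). B4GALT1, a galactosyltransferase of the Golgi, rose from a mean of 422 ± 8.66 to 544 ± 5.86 CPM (SD, n = 3), and MDGA1, a GPI-anchored adhesion protein, from 32 ± 2.84 to 47.9 ± 1.13 CPM. Their log2 fold changes were 0.37 and 0.58 (adjusted p of 1.17e-14 and 5.23e-13).

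The largest relative rises among called genes of at least 5 CPM whose groups did not overlap were in genes of low level. The genes of this paragraph were picked by that rule, so their lack of overlap was fixed by it. DOK7, an adaptor of the muscle-specific kinase, had 5.14, 5.47 and 6.3 CPM with anastrozole and 9.42, 10.8 and 11.4 CPM with the combination. This was a log2 fold change of 0.90 (SE 0.14, adjusted p = 4.76e-08), with the groups apart. WT1, the zinc finger factor named for Wilms tumour, rose from 4.7, 5.07 and 4.9 CPM to 8.68, 8.33 and 8.31 CPM, a log2 fold change of 0.79 (SE 0.15, adjusted p = 3.71e-05). The secreted peptide SPINK4 rose by 0.87 and the peroxisomal oxidase ACOX2 by 0.68 on the log2 scale. ADRA2A (0.76), HEY2 (0.57), PIF1 (0.59) and HERC5 (0.56) lost their calls in 1 or more fits without a library. Among the falls, LRRC31 went from 21.8, 20.6 and 20 CPM to 14.3, 14.9 and 14.1 CPM, a log2 fold change of -0.53 (SE 0.10, adjusted p = 9.49e-06), with no overlap. The bone morphogenetic protein receptor BMPR1B (log2 fold change -0.48) and SHISA2 (-0.46), an inhibitor of WNT and FGF receptor maturation, fell as well.

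Among interferon-stimulated genes, those that passed were higher. Of 38 tested, 6 were higher and 0 lower (IFI27, IFI6, ISG15, HERC6, MX1 and OAS3), which is 15.8% against 3.04% of all genes and 5.3% of the abundant genes called. The other 32 did not pass. In this list 31 of the 38 log2 fold changes were above 0, against 10576 of 20410 over all genes tested. The median was 0.13, against 0.01, and the list as a whole was not tested. With the GC offset 7 were higher and 0 lower. IFI27, a mitochondrial interferon-induced protein, had 20.3, 21.4 and 17.3 CPM with anastrozole and 28.9, 26.5 and 29.4 CPM with the combination. Its groups did not overlap, and the log2 fold change was 0.52 (SE 0.08, adjusted p = 1.22e-07). IFI6 rose from 76.7, 93.8 and 87.9 CPM to 108, 110 and 108 CPM, a log2 fold change of 0.34 (SE 0.05, adjusted p = 9.61e-09), and LINC02574 on its strand covers 23.1% of its exon bases. They were the only members of the list to keep their calls in all 6 fits without a library. MX1, an antiviral GTPase, had a log2 fold change of 0.21 (adjusted p = 0.0071) and was called in 3 of them, and ISG15 (0.40, adjusted p = 0.0243) lost its call with the offset.

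The immediate early genes that passed were higher too. Of 27 tested, 4 were higher (EGR3, MYC, DUSP4 and FOSL2) and 0 lower, with a median log2 fold change of 0.15. Of these, EGR3 and MYC were already counted among the estrogen-induced genes. The 4 calls are 14.8% of the list, against 3.04% of all genes and 5.3% of the abundant ones. DUSP4, a phosphatase of MAP kinases, rose by 0.37 on the log2 scale (adjusted p = 0.0137) and was called in 3 of the 6 fits without a library. FOSL2 rose by 0.27 (adjusted p = 0.0273) and was called in 1 of them. With the offset FOSL2 lost its call, at a log2 fold change of 0.23 (adjusted p = 0.0596). FOS had 2.1, 3.55 and 2.54 CPM against 3.97, 3.75 and 3.72 CPM, not overlapping but not past the threshold (adjusted p = 0.178). In growth factor signalling, 2 of 31 genes were higher (IGFBP4 and IGFBP2) and 2 lower (12.9%). With the offset IGFBP2 lost its call, and 3 were higher and 3 lower. The 2 lower ones without the offset were regulatory subunits of phosphoinositide 3-kinase. PIK3R1 went from 138, 137 and 136 CPM to 110, 105 and 115 CPM, a log2 fold change of -0.32 (SE 0.05, adjusted p = 1.76e-08), and every combination library was lower. PIK3R3 fell by 0.19 (adjusted p = 0.00713) but in 3 of the 6 fits without a library.

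Of the cell cycle genes 4.65% of those of DNA replication, 8.82% of those of mitosis and 3.85% of those of G1 passed, against 3.04% of all genes and 5.3% of the abundant ones. Of 43 genes of DNA replication, 2 were higher, the polymerase δ subunit POLD2 (log2 fold change 0.21, adjusted p = 0.00117) and the licensing factor CDT1 (0.21, adjusted p = 0.0201), and 0 lower. CDT1 lost its call with the offset. Of 34 genes of mitosis, 3 were higher (CKS2, CDC20 and UBE2C) and 0 lower, with a median of 0.05 and 29 values above 0, and none of the 3 kept its call in all 6 fits without a library. With the offset CDC20 and UBE2C lost theirs while KIF23 (log2 fold change 0.15) and CDK1 (0.12) came in, and 31 of the 34 values were above 0. MCM4 and TOP2A had log2 fold changes of 0.01 and 0.01 (adjusted p of 0.951 and 0.959). Of 26 genes of G1 cyclins, CDKs and the RB-E2F axis, MYC alone passed. TXNIP, an inhibitor of thioredoxin that glucose induces, had 541, 510 and 482 CPM with anastrozole and 440, 426 and 449 CPM with the combination. The groups did not overlap, and the log2 fold change was -0.22 (SE 0.04, adjusted p = 3.14e-05). TXNRD1, a thioredoxin reductase, was the other of the 14 genes of its list that was lower, in 3 of the 6 fits without a library, and 0 were higher (14.3% called). With the offset TXN was higher (log2 fold change 0.21).

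Ribosomal protein genes had 9 of 75 members higher and 0 lower with a median of 0.07, but 3 higher with the GC offset. Oxidative phosphorylation subunits had 5 of 70 higher and 0 lower with a median of 0.05, and 6 higher with the offset. Without the offset the calls are 12% and 7.14% of the lists, against 5.3% of the abundant genes and 3.04% of all. None of them held in all 6 fits without a library, and ribosomal protein genes share sequence with many pseudogenes. In the endoplasmic reticulum, SEL1L, a subunit of the degradation complex, fell from a mean of 781 ± 15.8 to 671 ± 9.69 CPM (SD, n = 3), a log2 fold change of -0.22 (adjusted p = 3.14e-05). Of the 21 chaperone genes (9.52% called) it was the single lower one, and SDF2L1 the single higher one (0.25, adjusted p = 0.0449), a call lost with the offset. SC5D was the 1 lower gene of 29 of cholesterol synthesis (log2 fold change -0.18, adjusted p = 0.00424), SLC25A1 the 1 higher gene of 20 of fatty acid synthesis (0.17, adjusted p = 0.0267) and SLC7A5 the 1 higher gene of 28 ATF4 targets and tRNA synthetases. SC5D and SLC25A1 both lost their calls with the offset, which called 2 other genes of cholesterol synthesis higher (INSIG1 and HMGCS1) and 2 lower. Of 15 genes in the list of CSMD1 and TGF-beta and SMAD signalling 0 passed in edgeR's test. CSMD1 had a log2 fold change of -0.11 (adjusted p = 0.704) and SMAD3 of -0.01 (adjusted p = 0.972). Of 20 replication-dependent histone genes 0 passed, and 1 was lower with the offset.

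**Figure D4:**
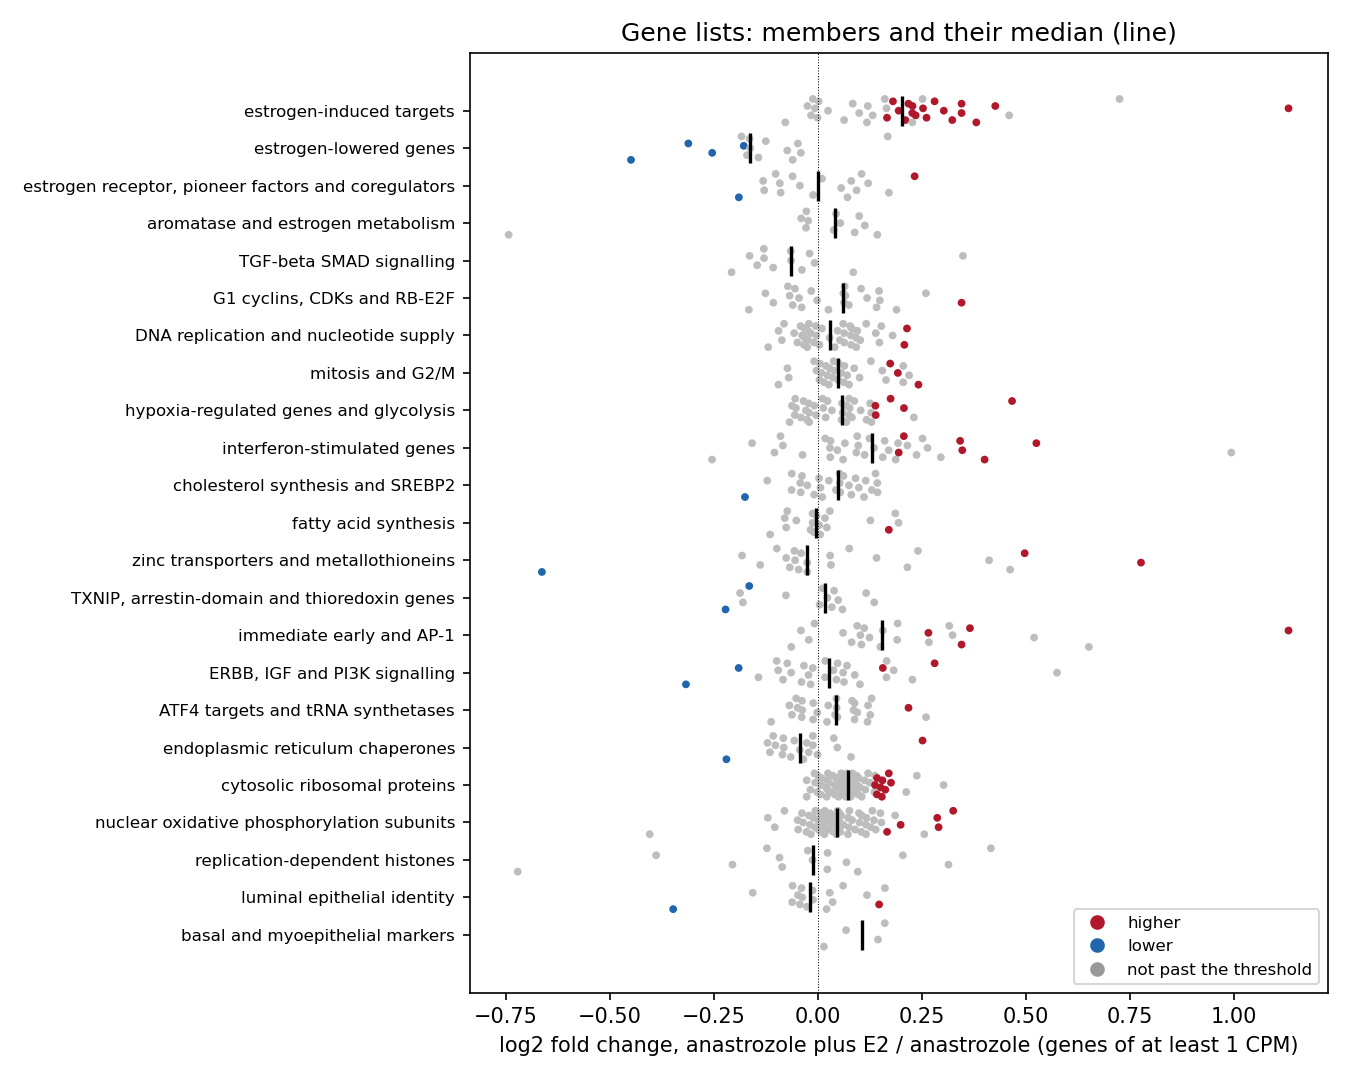
Log2 fold change (x axis) of each member with a mean of at least 1 CPM in 23 gene lists, with red and blue for genes past the threshold and a black line at the median of the members drawn. The estrogen-induced list lies furthest to the right and the estrogen-lowered list furthest to the left.

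The libraries carried the markers of the labelled cell type. The luminal keratin genes KRT8, KRT18 and KRT19 had between 1140 and 2990 CPM in every library, CDH1 between 873 and 922 CPM and EPCAM between 158 and 165 CPM. Of 18 luminal genes MUC1 was higher and CD24 lower (11.1%, against 3.04% of all genes and 5.3% of the abundant genes called), and MUC1 (log2 fold change 0.15, adjusted p = 0.024) lost its call with the offset. With the offset PGR was the 1 higher gene and 4 were lower, SPDEF (log2 fold change -0.16), ELF3 (-0.20) and CLDN4 (-0.12) beside CD24. The summed level of 9 fibroblast markers was 88.5, 93.8 and 97.5 CPM with anastrozole and 104, 98.9 and 104 CPM with the combination, nearly all of it COL1A1 (log2 fold change 0.14, adjusted p = 0.13). COL3A1 was at 0 in all 6 libraries, and COL1A2, DCN and FAP were under the limit of detection. Of 8 basal and myoepithelial markers, ACTA2 was the most abundant at 8.72 to 12.5 CPM, the sum was 26.9, 23 and 24.6 against 26.1, 25.7 and 27.1 CPM, and KRT5 was under the limit. The 4 endothelial markers tested summed to between 0.71 and 1.23 CPM with CLDN5 the most abundant, and PECAM1 and CDH5 were at 0. The 6 immune markers tested summed to between 12.4 and 14.8 CPM, of which CD68 made up 4.93 to 7.16 CPM, with PTPRC and MS4A1 at 0. None of these 27 markers passed in edgeR's test.

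**Figure D5:**
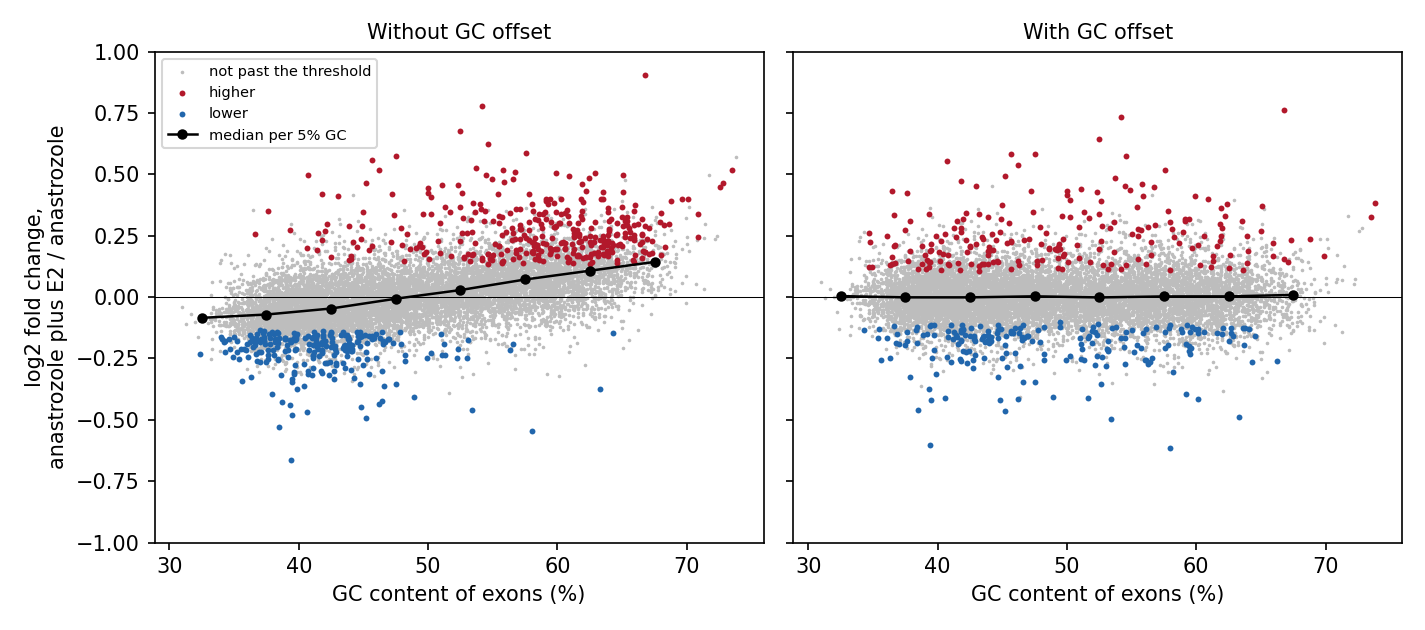
Log2 fold change of anastrozole plus E2 over anastrozole (y axis) against the GC content of a gene's exons in percent (x axis) for 10880 genes whose average reached 3 log2 CPM, without (left) and with (right) the GC offset. Red and blue points passed the threshold, black points are medians per 5% of GC, and the slope on the left, with rho of 0.57, is gone on the right, with rho of 0.01.

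The trend on GC content sets a limit on the smaller changes. Genes called higher had a median GC content of 59.4% and those called lower 41.3%, against 47.5% for genes of at least 3 log2 CPM that were not called, and with the offset the medians were 49.4% and 46.6%. Where a real response to E2 happened to track GC content, the offset takes it away too.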

How the data were processed

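RNA-seq counts per gene were analysed for the 6 libraries labelled anastrozole or anastrozole plus E2. The authors aligned reads to hg19 with TopHat2 2.0.14 and Bowtie2 2.2.6 and deposited whole-number counts per gene made with HTSeq, not normalized. Annotation, strand setting and HTSeq version are not given in the sources used here. The labels give polyA RNA, while the protocol describes libraries of total RNA. The 5 summary lines of the table were left out. HTSeq's line for reads without a feature held between 59.1% and 59.7% of the reads. Which features were counted is not stated, so these reads may still lie within genes. The 4960 genes without a count in any of the 6 libraries were dropped. The comparison was fitted with edgeR 4.0.16 in R 4.3.3 (TMM, robust quasi-likelihood F test, 2-sided, Benjamini-Hochberg adjusted p under 0.05 over all genes tested). The fits were also run on simulated counts with the same dispersion for every gene and no trend on GC content. That run cannot show how the fits behave under the GC trend of these libraries. Standard errors were derived from F, as the size of the log2 fold change over the root of F. CPM are TMM-normalized.

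Exon GC content and positions came from GENCODE release 44 on GRCh37, which shares hg19's main chromosomes, and matched 21539 genes by symbol and 1498 by a RefSeq synonym, with 2333 unmatched. GC content was known for 98.3% of genes of at least 3 log2 CPM, and each library's trend (lowess, span 0.5) was the offset. Alternatives were DESeq2 size factors or library size, 2 filters, DESeq2 1.42.0, edgeR's exact test, limma-voom (limma 3.58.1), the letter as a block, thinning to 9914253 reads, and leaving out each library. The members and lists were chosen with earlier results of these data known. Named genes were the 12 largest changes in each direction among called genes of at least 5 CPM whose groups did not overlap, the 10 smallest adjusted p, up to 4 called members per list and direction with the most abundant member, genes the study discusses and cell type markers. The text prints a selection. HSD17B12, RET, PDZK1, CTSD, MYBL1, STC2, FKBP4, CXCL12, ADCY9, SIAH2, CELSR2, TFF1, XBP1, IGF1R, SLC39A6, MT1X, SLC39A1, SLC39A3, SLC39A4, SLC30A3, BMF, EPAS1, DDIT4, NRIP1, TPD52L1, KIF23, CDK1, TXN, PDK1, ERO1L, INSIG1, HMGCS1, PFKL, ISG15, HERC6 and FOS were added after their values were seen.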

Additional observations from a re-analysis of the deposited data

How the results depend on the processing

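None of the 141 genes of the naming rule turned direction while called in the alternatives that tested it (76 with an adjusted p in DESeq2's Wald test), but the number of calls moved. Against 621 genes (370 higher, 251 lower), edgeR's filterByExpr gave 295 (155 and 140), a cut at 3 log2 CPM on average 290 (149 and 141), DESeq2's Wald test 236 (96 and 140, of 4582 genes left by its own filter), edgeR's exact test 310 (182 and 128) and limma-voom 239 (128 and 111). The GC offset gave 228 higher genes, and the offset without anastrozole library a, chosen after seeing the data, gave 340 (180 and 160). Leaving out 1 library gave 242 to 1728 genes, 147 to 1008 higher and 92 to 720 lower, with 313, 268 and 1728 without anastrozole a, b and c and 361, 284 and 242 without combination a, b and c. DESeq2 size factors (629), library size (655) and thinning (466) stayed within 1.5 times. Libraries with the same letter deviated together with correlations across genes of 0.32, 0.03 and 0.11 for a, b and c, so the letters were not taken as pairs. With the letter as a replicate block 629 genes passed (388 and 241), and with the block and the GC offset 584 (305 and 279). The cause of these shifts was not tested. Of 141 named genes, 17 lost and 6 gained a call with the offset, and 29 lost one with limma-voom. At 9914253 to 16158706 reads per library, genes near 1 CPM have too few counts for changes of the median size, 0.23 on the log2 scale, to be called.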

Other observations

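The core of 122 genes held further changes outside the lists, picked here after their values were seen. The ETS factors EHF and ELF5 of luminal progenitor cells were both lower with the combination, EHF at 1300, 1290 and 1210 against 1070, 1110 and 1100 CPM (log2 fold change -0.21, adjusted p = 6.31e-05 in edgeR's test) and ELF5 at 339, 336 and 298 against 269, 269 and 280 CPM (-0.25, adjusted p = 2.28e-06). No combination library of either gene reached the lowest anastrozole library. The transcription factor ZNF217 (log2 fold change -0.22), the adhesion protein ALCAM (-0.26), the kinase PLK2 (-0.26), the sialyltransferase ST6GAL1 (-0.26), the fatty acid receptor CD36 (-0.33) and the potassium channel KCNMA1 (-0.35) were lower too.

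Among higher genes of the core were the trefoil peptide TFF3, at 124, 108 and 109 against 149, 135 and 141 CPM (log2 fold change 0.31, adjusted p = 4e-08), the histone demethylase KDM4B, at 154, 169 and 185 against 201, 208 and 209 CPM (0.28, adjusted p = 7.67e-08), and CISH, a suppressor of cytokine signalling, at 14.5, 16.1 and 16.2 against 20.9, 22.4 and 23.3 CPM (0.51, adjusted p = 1.3e-05). The groups of these 3 genes did not overlap. The lung-type lipid transporter ABCA3 (0.30) and the LIM protein CSRP1 (0.46) also rose.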
